A study of Rattus norvegicus with 2 samples.

Results

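The genes described here are 10 markers of pericentral hepatocytes: Glul, Oat, Slc1a2, Rhbg, Cyp2e1, Cyp1a2, Rgn, Axin2, Tbx3 and Lgr5. They were taken as a list of names, chosen with earlier results of these data known. Every array probe carrying one of those names was used, which gave 15 probes out of 41012 gene probes on the array. All 10 genes had a probe, and 9 of them were among the 18198 genes bright enough to be tested. Liver total RNA came from Wistar rats (spelled Wister in the labels) aged 7 weeks, which received a choline-deficient diet or a control diet for 10 days. It was read on 2 two-colour Agilent oligonucleotide arrays with the dyes swapped. On array 1 the choline-deficient RNA was in Cy5 and the control RNA in Cy3, and on array 2 the dyes were the other way round. The labels mention 4 choline-deficient rats, but whether each array held other rats, pools or the same extracts again is not stated in them. Every p-value here rests on how far these 2 arrays differed, largely pooled over genes and hardly on the gene's own spread. That difference may be technical.

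Hepatocytes differ along the path of blood from the portal tract to the central vein. Cells around the portal tract make urea and glucose, whereas those beside the central vein capture leftover ammonia as glutamine and carry much of the cytochrome P450 that handles drugs and other foreign compounds. Wnt proteins released by endothelial cells of the central vein, amplified by R-spondins, keep beta-catenin active in the neighbouring hepatocytes, and the innermost pericentral genes depend on that signal. The liver is also the main site of choline metabolism, and animals lacking choline in the diet accumulate hepatic fat.

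All values below are log2 ratios of choline-deficient over control on 1 array each, after background correction and normalization within the array, so that a value below 0 is a lower signal in choline-deficient liver. A level is the normalized log2 intensity of a probe in 1 diet on 1 array. Levels of different probes were not set against each other. Errors are the SD over the 2 arrays (n = 2). The 95% intervals use the limma standard error, with the spread largely pooled over genes. They are not adjusted for the number of genes, so an interval can leave out 0 where the adjusted p-value does not pass. A gene was called higher or lower where its limma p-value, adjusted by Benjamini-Hochberg over all 18198 genes, was under 0.05. All 10 hepatocyte markers examined, such as Alb and Ttr, were well above background in both diets on both arrays.

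The array reads each gene through probes of 60 bases. Probes of 5 members, of which some fell and some did not pass the test, are shown as examples of what was read: each is free of stop codons in at least 1 forward frame, and no part is set in capitals. For Tbx3, Cyp2e1 and Rhbg the probe shown is the one behind the gene's call. For Oat and Cyp1a2 it is the dimmer probe, whose values stand second below, and the calls of these genes rest on another probe.
Oat A_44_P287250: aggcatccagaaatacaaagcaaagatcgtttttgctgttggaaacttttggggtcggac
Cyp1a2 A_44_P142025: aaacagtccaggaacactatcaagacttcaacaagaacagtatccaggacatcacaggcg
Tbx3 A_44_P222030: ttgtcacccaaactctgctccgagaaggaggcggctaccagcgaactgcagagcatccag
Cyp2e1 A_44_P409232: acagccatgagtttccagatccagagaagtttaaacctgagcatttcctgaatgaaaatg
Rhbg A_44_P529240: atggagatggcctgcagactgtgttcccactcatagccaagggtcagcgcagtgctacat
In the rat build rn4, as the array files give it, the Oat probe lies on the minus strand at chr1:192034223-192036547. It covers 2325 bases of genome with 60 bases of sequence, so it is interrupted there. The Cyp1a2 probe, at chr8:61444103-61444724 on the minus strand, covers 622 bases and the Rhbg probe, at chr2:180322425-180322935 on the minus strand, covers 511 bases. The Tbx3 probe lies whole at chr12:38155551-38155610 on the minus strand, and the Cyp2e1 probe whole at chr1:200927736-200927795 on the plus strand. The brighter probes of Oat and Cyp1a2 lie at chr1:192026857-192026916 and chr8:61439236-61439295, both on the minus strand. The probe of Rgn lies at chrX:13037618-13037677 on the minus strand, that of Axin2 at chr10:98321105-98321164 on the plus strand, and the one used for Slc1a2 at chr3:87988361-87988420 on the plus strand. Exon and untranslated-region annotation of rn4 was not used here.

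Of the 9 members tested, 5 were lower in the choline-deficient liver, 0 were higher and 4 did not pass the test. Over all genes tested, 4.25% were called lower and 4.37% higher. Because the members were chosen with earlier results of these data known, setting these shares side by side is a description and no test. The members that fell were Oat, Cyp1a2, Tbx3, Glul and Rgn, and those that did not pass were Cyp2e1, Slc1a2, Rhbg and Axin2. The median log2 ratio of the 9 members was -0.36, with -0.34 on array 1 and -0.37 on array 2, beside 0.00 over all genes. Over the 10 hepatocyte markers it was -0.25, with 0.20 on array 1 and -0.55 on array 2. In 5 members both choline-deficient levels lay below both control levels, a pattern shown by 20.3% of all genes. In 2 members, Slc1a2 and Rhbg, both lay above, as in 23.2% of all genes. In liver tissue as a whole, fewer pericentral cells and less RNA per cell cannot be told apart.

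**Figure D1:**
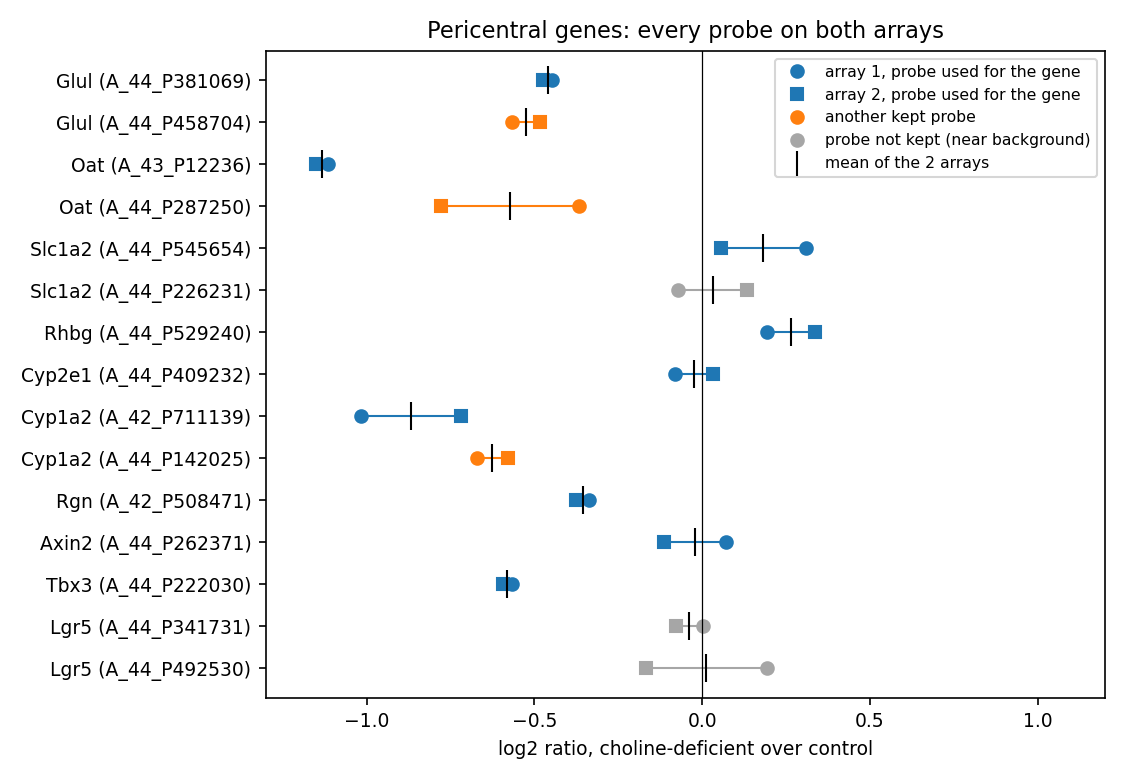
Log2 ratio of choline-deficient over control (horizontal axis) for each of the 15 probes of the pericentral genes; circles are array 1, squares array 2 and black ticks their mean. Both probes of Oat, Glul and Cyp1a2 and the single probes of Tbx3 and Rgn lie below 0 on both arrays, whereas Slc1a2 and Rhbg lie above 0 with the probes used for the genes.

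The ammonia and glutamate group held the member with the largest decrease. Oat encodes ornithine aminotransferase, which turns ornithine into glutamate semialdehyde in the mitochondria. Its level was 10.95 and 11.08 in choline-deficient liver and 12.07 and 12.23 in control liver, on array 1 and array 2 in turn. The diets were separated by more than a full log2 unit on each array. The log2 ratios of -1.12 and -1.15 gave a mean of -1.13 ± 0.02 (SD, n = 2), which is 2.19-fold lower (limma, adjusted p = 3.51e-14). Counted from the lowest mean ratio among the 18198 genes, Oat stood at place 19. The second Oat probe, whose sequence is given above, was also below 0 on both arrays, at -0.37 and -0.78, and its array values lay further apart, with a mean of -0.57 ± 0.29. The authors' deposited log2 ratios for that probe were larger, -0.89 and -1.45, and for the first probe they were -1.14 and -1.18.

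Glul, the glutamine synthetase that joins ammonia to glutamate, is the classic marker of the innermost ring of pericentral cells. Its levels were 11.48 and 11.47 in choline-deficient liver and 11.93 and 11.94 in control liver. The levels within a diet differed far less than the diets did. The log2 ratios were -0.45 and -0.47, a mean of -0.46 ± 0.02, or 1.38-fold lower (limma, adjusted p = 7.24e-04). A second Glul probe gave -0.57 and -0.48, with a mean of -0.52 ± 0.06, so both probes of this gene placed the decrease at a similar size. The array files give no rn4 position for either Glul probe.

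The transporters of the same group did not pass the test. Slc1a2 encodes the glutamate transporter GLT-1, which pericentral hepatocytes use to take up glutamate for glutamine synthesis. Its levels were 9.02 and 8.92 in choline-deficient and 8.71 and 8.86 in control liver. Both choline-deficient levels were above both control levels, but the gap was small on array 2. The log2 ratios of 0.31 and 0.06 gave a mean of 0.18 ± 0.18 with a 95% interval from -0.02 to 0.39 (limma, adjusted p = 0.385). Its other probe, spotted 10 times, was not well above background in either diet on either array. Rhbg is an ammonia transporter of the Rhesus family at the hepatocyte membrane. It had levels of 9.23 and 9.28 against 9.03 and 8.95. The ratios were 0.19 and 0.34, with a mean of 0.27 ± 0.10 and a 95% interval from 0.06 to 0.47 (limma, adjusted p = 0.103). With the spread modelled as a function of intensity, which pooled it fully over genes, Rhbg passed at an adjusted p of 0.0339.

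Outside the members, 21 of 28 listed genes of ammonia, glutamine and proline metabolism were tested, and 2 were higher and 2 lower. Their median was -0.01, against 0.00 over all genes. The pair that fell were Prodh2 at -0.72 ± 0.0031 (limma, adjusted p = 9.42e-08), which oxidises hydroxyproline, and Prodh at -0.70 ± 0.13 (limma, adjusted p = 2.24e-07), which oxidises proline. With the median over its probes Prodh was at -0.33 (limma, adjusted p = 0.0196). The pair that rose were membrane transporters of the same family as Slc1a2. Slc1a5, which carries neutral amino acids including glutamine, was at 0.45 ± 0.10 (limma, adjusted p = 0.00118), and the glutamate transporter Slc1a3 was at 0.32 ± 0.07 (limma, adjusted p = 0.0332). The call of Slc1a3 was lost without the filter on dim probes (limma, adjusted p = 0.0755), with the median spot signal (0.0561) and with the median over its probes, where it was at 0.17 (0.399). The periportal partners of Glul did not pass: Gls2, the liver glutaminase that releases ammonia from glutamine, was at -0.0018 ± 0.20, and Cps1, which commits ammonia to urea, was at -0.18 ± 0.03 (limma, adjusted p = 0.37).

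**Figure D2:**
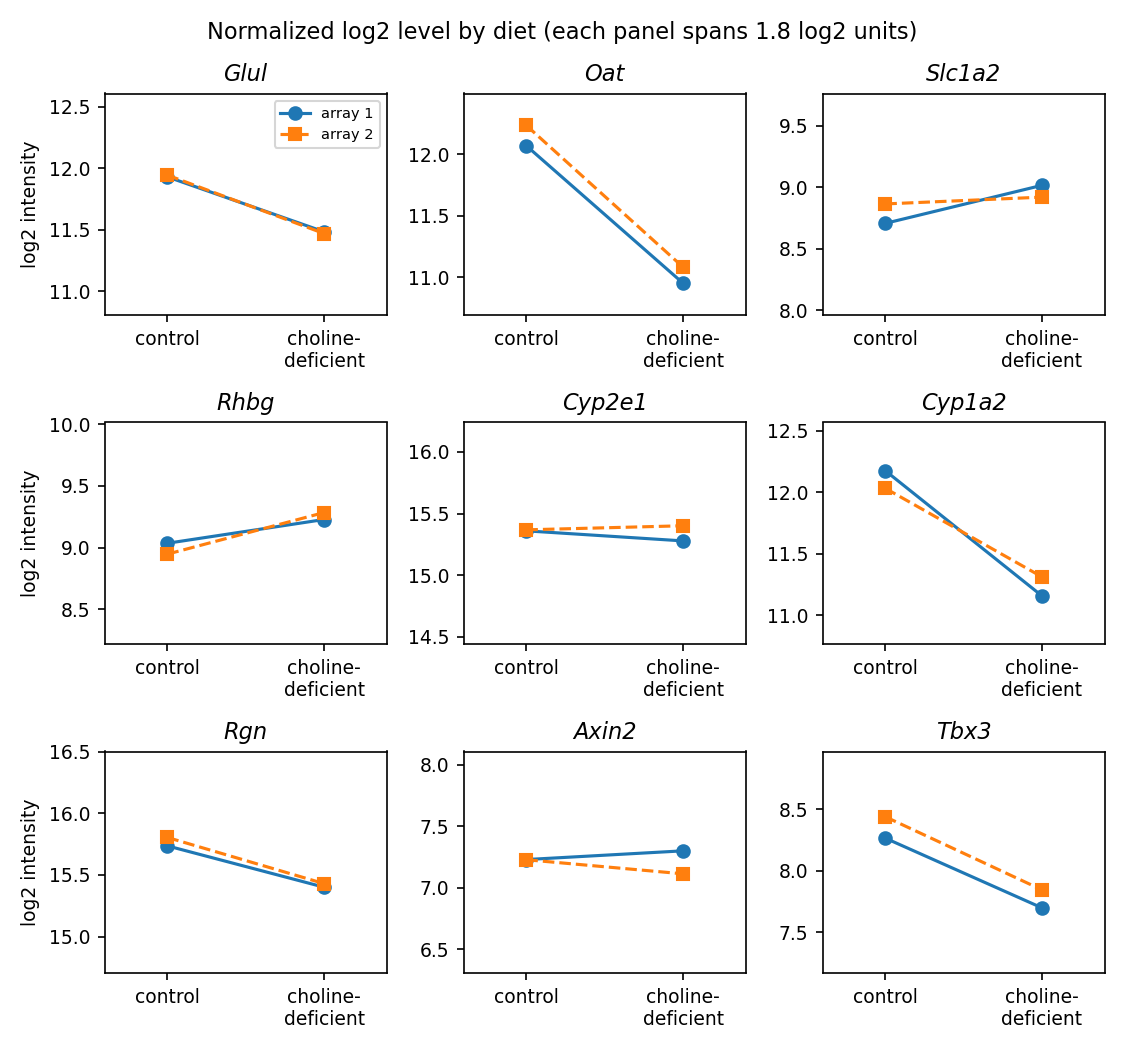
Normalized log2 level (vertical axis) of each tested pericentral gene in choline-deficient and control liver on both arrays. The levels of Oat, Cyp1a2, Tbx3, Glul and Rgn are lower in choline-deficient liver on both arrays without overlap, and those of Cyp2e1 and Axin2 overlap.

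The cytochromes P450 among the members went separate ways. Cyp1a2, the caffeine-metabolising P450 induced through the aryl hydrocarbon receptor, had levels of 11.16 and 11.31 in choline-deficient and 12.18 and 12.03 in control liver. The diets did not overlap. Its ratios of -1.02 and -0.72 gave a mean of -0.87 ± 0.21, or 1.83-fold lower (limma, adjusted p = 7.97e-10). The second Cyp1a2 probe, printed above, gave -0.67 and -0.58, a mean of -0.63 ± 0.07. Oat and Cyp1a2 were also the 2 members that were at least 1.5-fold lower on each array taken alone, as were 90 genes in all.

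Cyp2e1, the P450 that oxidises ethanol, acetaminophen and fatty acids, is among the messages most used to mark the pericentral zone. Its levels were 15.28 and 15.40 in choline-deficient liver and 15.36 and 15.37 in control liver. The diets overlapped, with the choline-deficient level below the control level on array 1 and above it on array 2. The ratios of -0.08 and 0.03 gave a mean of -0.02 ± 0.08 with a 95% interval from -0.23 to 0.18 (limma, adjusted p = 0.974), so a change as large as that of Glul lies outside this interval. The probe is spotted 10 times on the array. Its spots ranged from -0.20 to 0.07 on array 1 and from -0.04 to 0.10 on array 2, so they lay on both sides of 0 on each.

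Rgn encodes regucalcin, a calcium-binding gluconolactonase of liver. Its levels were 15.40 and 15.43 in choline-deficient liver and 15.74 and 15.80 in control liver, with no overlap. Its 10 spots lay between -0.45 and -0.17 on array 1, and the 9 usable spots on array 2 lay between -0.43 and -0.28, all below 0. The mean ratio was -0.36 ± 0.03, from -0.34 and -0.37, or 1.28-fold lower (limma, adjusted p = 0.0135). The call was lost at a smaller background offset of 16 (limma, adjusted p = 0.0743) and with the intensity trend (limma, adjusted p = 0.171). Hepatocyte markers as a list had a median ratio of 0.20 on array 1 and -0.55 on array 2. The log2 of their summed level was 19.87 and 19.50 in choline-deficient and 19.78 and 20.12 in control liver, and the part of this difference between arrays in the values of Rgn and Cyp2e1 was not tested.

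Of 25 listed P450s, their partners and regulators, 21 were tested, of which 5 were lower and 0 higher, with a median of -0.16. Cyp2c12, a steroid-hydroxylating P450 known for its female-biased expression in rat, was at -1.01 ± 0.08 (limma, adjusted p = 2.78e-12). Foxa2, a liver transcription factor, was at -0.48 ± 0.03 (limma, adjusted p = 3.67e-04). Nr1i3, the xenobiotic receptor CAR, was at -0.47 ± 0.03 (limma, adjusted p = 5.91e-04), and Cyb5a, a cytochrome b5 that passes electrons to P450s, at -0.46 ± 0.09 (limma, adjusted p = 7.22e-04). Por, the reductase that serves all microsomal P450s, did not pass at -0.08 ± 0.13 (limma, adjusted p = 0.844). Arnt, the partner of the aryl hydrocarbon receptor, was not well above background in choline-deficient liver on either array. Its measured mean levels were 6.98 and 7.10 in choline-deficient and control liver, and its adjusted p was 0.697 (limma). The receptor gene Ahr was not analysed here.

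The remaining members are components or targets of the Wnt pathway. Tbx3, a T-box transcription factor switched on by beta-catenin in pericentral hepatocytes, had levels of 7.70 and 7.84 in choline-deficient and 8.26 and 8.44 in control liver. Both choline-deficient levels were below both control levels. The ratios were -0.57 and -0.59, a mean of -0.58 ± 0.02, or 1.49-fold lower (limma, adjusted p = 1.49e-05). The offset added in background correction draws the ratios of dim probes towards 0. The authors' deposited log2 ratios for the same Tbx3 spot, made without that offset, were -1.19 and -0.94, and their mean of -1.07 is over 1.5 times the value above. At the smaller offset of 16 the mean was -0.67. The deposited ratios differ in other processing steps too, and the cause of the gap was not tested.

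Axin2, a feedback inhibitor of Wnt signalling and a common reporter of beta-catenin activity, had levels of 7.30 and 7.11 in choline-deficient and 7.23 and 7.23 in control liver. In control liver both arrays read it well above background, and in choline-deficient liver 1 of the 2 did. The ratios of 0.07 and -0.11 had opposite signs, with a mean of -0.02 ± 0.13 and a 95% interval from -0.23 to 0.18 (limma, adjusted p = 0.978). The authors' deposited log2 ratios, made without the offset and with other processing steps, lay further apart, at 0.29 and -0.47. The interval covers only the ratios made with the offset. Lgr5, a receptor for R-spondins found on pericentral hepatocytes, was the member that was not tested. One of its probes was not well above background in any channel, and the other was above it on 1 array in each diet, each time in Cy5. The levels of the latter were 7.12 and 6.97 in choline-deficient and 6.92 and 7.14 in control liver, so no difference was detectable at this brightness.

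Among 38 other genes of Wnt signalling, 22 were tested, of which 3 were lower and 0 higher, with a median of -0.08. Fzd1, a Wnt receptor, was at -0.57 ± 0.09 (limma, adjusted p = 2.35e-05). Notum, a secreted enzyme that inactivates Wnt proteins and is itself a target of the pathway, was at -0.52 ± 0.12 (limma, adjusted p = 1.45e-04), and Csnk1a1, a kinase of the beta-catenin destruction complex, at -0.36 ± 0.23 (limma, adjusted p = 0.0156), a call lost at the offset of 16 (limma, adjusted p = 0.0653). Of the upstream signal, Wnt2 and Wnt9b, which central vein endothelium is known to release, were not tested, since no probe of theirs was bright enough. The R-spondin gene Rspo3 was at -0.23 ± 0.05 (limma, adjusted p = 0.178) and its receptor gene Lgr4 at -0.16 ± 0.02 (limma, adjusted p = 0.467). Within the cell, Ctnnb1, which encodes beta-catenin, was at -0.01 ± 0.10 (limma, adjusted p = 0.995) and its DNA-binding partner Tcf7l2 at -0.27 ± 0.07 (limma, adjusted p = 0.102). Rnf43, which removes Wnt receptors, was at 0.01 ± 0.16, and Znrf3 was not analysed here.

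**Figure D3:**
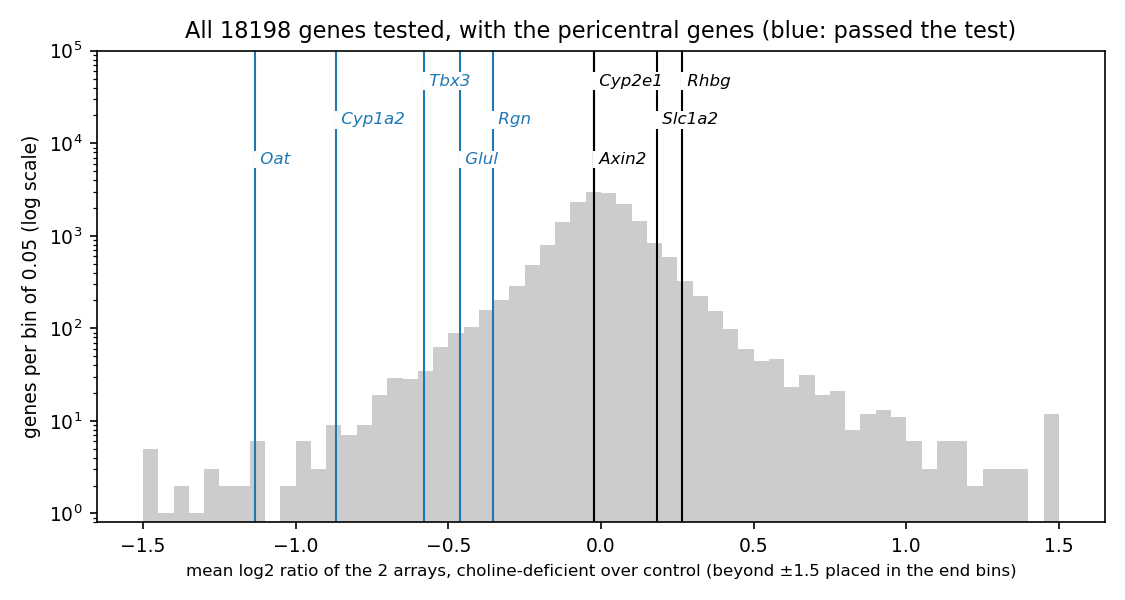
Number of genes per bin of mean log2 ratio, choline-deficient over control (log scale on the vertical axis), for all 18198 genes tested; vertical lines mark the 9 pericentral genes, blue where the test was passed. Oat, Cyp1a2, Tbx3, Glul and Rgn lie left of the bulk of genes, between -1.13 and -0.36, while Cyp2e1 and Axin2 both lie at -0.02.

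Promoter sequence was examined for words of the kind that the TCF and LEF partners of beta-catenin bind, because the list is known for its dependence on that pathway. The words searched were CTTTGAA and CTTTGAT together with CTTTGTA and CTTTGTT, 7 bases each, on both strands. RefSeq promoter windows of build GRCr8 reach from 250 bases before a gene's start to 50 after it. Of 33469 such windows of rat genes, 17.1% held at least 1 of the words. Windows were found for 8 of the 10 members, with 2 each for Glul and Slc1a2, and 5 of these 10 windows held a word, in Glul, Cyp2e1, Cyp1a2, Slc1a2 and Axin2. Stretches of 41 bases around the word, which is in capitals, are shown for the members on either side of the test.
Glul: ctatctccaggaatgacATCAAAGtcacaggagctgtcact
Cyp1a2: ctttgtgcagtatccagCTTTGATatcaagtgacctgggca
Cyp2e1 upstream: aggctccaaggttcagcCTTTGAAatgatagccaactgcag
Cyp2e1 near start: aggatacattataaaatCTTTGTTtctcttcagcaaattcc
Axin2 upstream: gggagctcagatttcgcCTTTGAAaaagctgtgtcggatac
Axin2 near start: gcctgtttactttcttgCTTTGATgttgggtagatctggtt
The word of Glul begins 230 bases before 1 of its 2 starts (chr13:68519253-68519293, plus strand), and its other window held none. For Slc1a2, too, only 1 of the 2 windows held a word. The word of Cyp1a2 begins 90 bases before the start (chr8:66978216-66978256, minus strand). In Cyp2e1 the words begin 153 and 41 bases before the start (chr1:205269797-205269837 and chr1:205269909-205269949, plus strand). In Axin2 they begin 232 and 132 bases before it (chr10:94398536-94398576 and chr10:94398636-94398676, plus strand). The label near start marks only the closer of a gene's 2 words. Words were found in promoters of members that fell, Glul and Cyp1a2, and of members that did not pass the test, Cyp2e1, Axin2 and Slc1a2. No word was found in the windows of Oat and Rgn, which fell, or of Rhbg. A match is a string of letters and not a measured binding site, and its absence says only that the letters are not in this window.

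Other genes of the pericentral zone, from a list of 28 of which 25 were tested, split in direction: 7 were lower and 3 higher, with a median of -0.19. At the offset of 16, without the filter on dim probes and with the median spot signal, 6 were lower and 2 higher. With the intensity trend 6 were lower. Nr1i3 and Por belong to both this list and that of the P450 regulators. The largest decreases were those of Rnase4, a secreted ribonuclease, at -0.83 ± 0.27 (limma, adjusted p = 3.75e-09), Cyp3a2, a steroid and drug hydroxylase, at -0.79 ± 0.42 (limma, adjusted p = 5.26e-08), and Prodh, given above. Ephx1, the microsomal epoxide hydrolase that detoxifies reactive epoxides, was higher at 0.59 ± 0.05 (limma, adjusted p = 1.25e-05). Cyp3a2 differed between the arrays, at -0.49 on array 1 and -1.09 on array 2.

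Of 28 listed genes of the periportal zone, all were tested, and 6 were lower and 2 higher, with a median of -0.14. The count lower was 4 at the offset of 16 and with the intensity trend. It was 5 without the filter on dim probes and with the median spot signal. The count higher was 1 at the offset of 16 and 3 with the intensity trend. Cyp17a1, a steroidogenic P450, was at -0.83 ± 0.04 (limma, adjusted p = 2.15e-09) and Hsd17b6, a steroid dehydrogenase, at -0.71 ± 0.12 (limma, adjusted p = 1.62e-07). The gluconeogenic enzymes Fbp1 and G6pc were at -0.60 ± 0.28 (limma, adjusted p = 1.39e-05) and -0.58 ± 0.15 (limma, adjusted p = 1.80e-05). Decreases were thus called in lists from both ends of the lobule, and whether the lists differ was not tested.

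**Figure D4:**
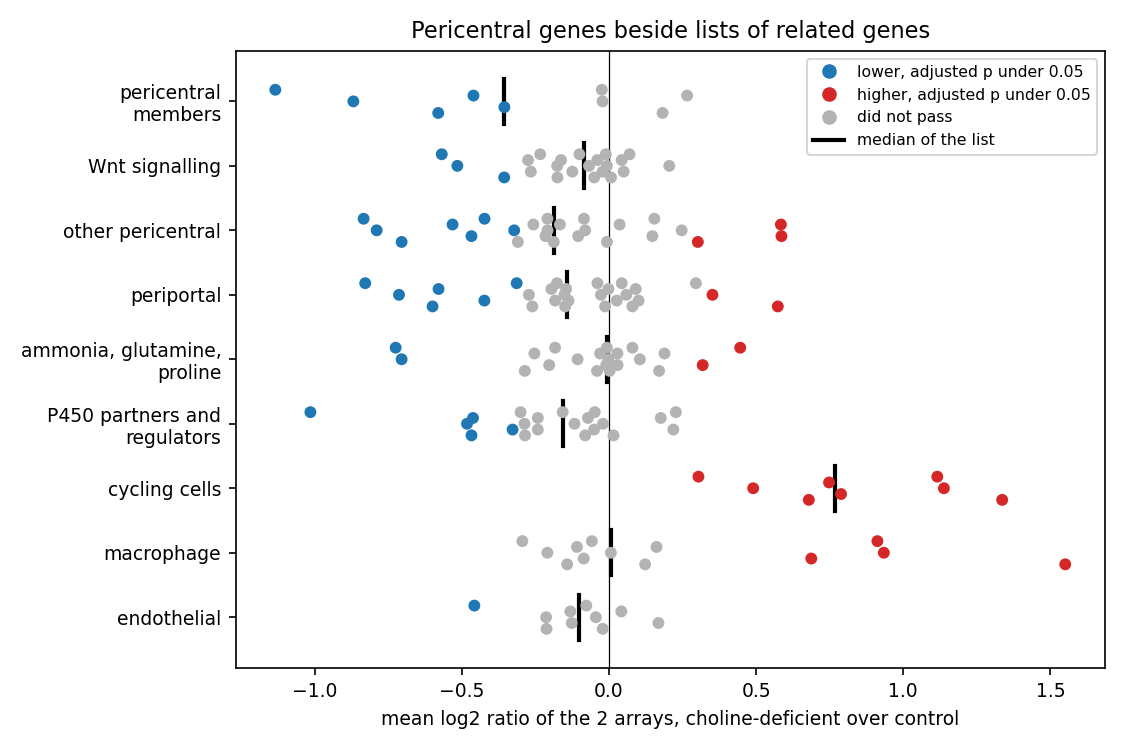
Mean log2 ratio (choline-deficient over control) of every tested gene in the pericentral members, the 5 context lists and the lists of cycling cells, macrophages and endothelial cells; points are genes (blue called lower, red called higher) and black ticks list medians. The median is -0.36 for the 9 members, -0.19 for other pericentral genes, -0.14 for periportal genes and 0.77 for genes of cycling cells.

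Some markers of other cells of the liver differed by diet as well. All 8 genes of cycling cells were higher (7 without the filter on dim probes, with the median over probes or with the median spot signal), with a median of 0.77, and the log2 of their summed level was 12.38 on both arrays in choline-deficient liver against 11.59 and 11.50 in control liver. Of 13 macrophage markers, 4 were higher and 0 lower, with a median of 0.01 and summed levels of 15.46 and 15.53 against 15.62 and 15.49. Of 9 stellate cell markers, 3 were higher, the collagens Col1a1 and Col3a1 and the matrix proteoglycan Dcn, with a median of 0.0010 and summed levels of 15.27 and 15.25 against 15.38 and 15.34. That count was 2 at the offset of 16 or with the median over probes, and 1 without the filter on dim probes or with the median spot signal. With the median over its probes Col1a1 was at 0.01 (limma, adjusted p = 0.984). Of 7 cholangiocyte markers, 1 was higher, the secreted phosphoprotein gene Spp1 at 1.52 ± 0.15 (limma, adjusted p = 2.48e-19), and the list had a median of -0.02. With the intensity trend 2 were higher. Its summed levels, Spp1 included, were 11.34 and 11.20 against 10.79 and 10.71. Of 10 markers of endothelial cells, the source of pericentral Wnt proteins, 1 was lower, Kdr at -0.46 ± 0.17 (limma, adjusted p = 9.24e-04). The list had a median of -0.10, and its summed levels, Kdr included, were 15.10 and 15.07 against 15.49 and 15.36. Of 10 hepatocyte markers, 4 were lower and 1 was higher, with a median of -0.25 and 9 mean ratios below 0. The count lower was 2 at the offset of 16, without the filter, with the median spot signal and with the intensity trend, and under the last of these 0 were higher. Col1a1, Col3a1, Dcn, Kdr and Spp1 were chosen for naming after their values were seen. The part of these cell types in the values of the pericentral genes was not tested.

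**Figure D5:**
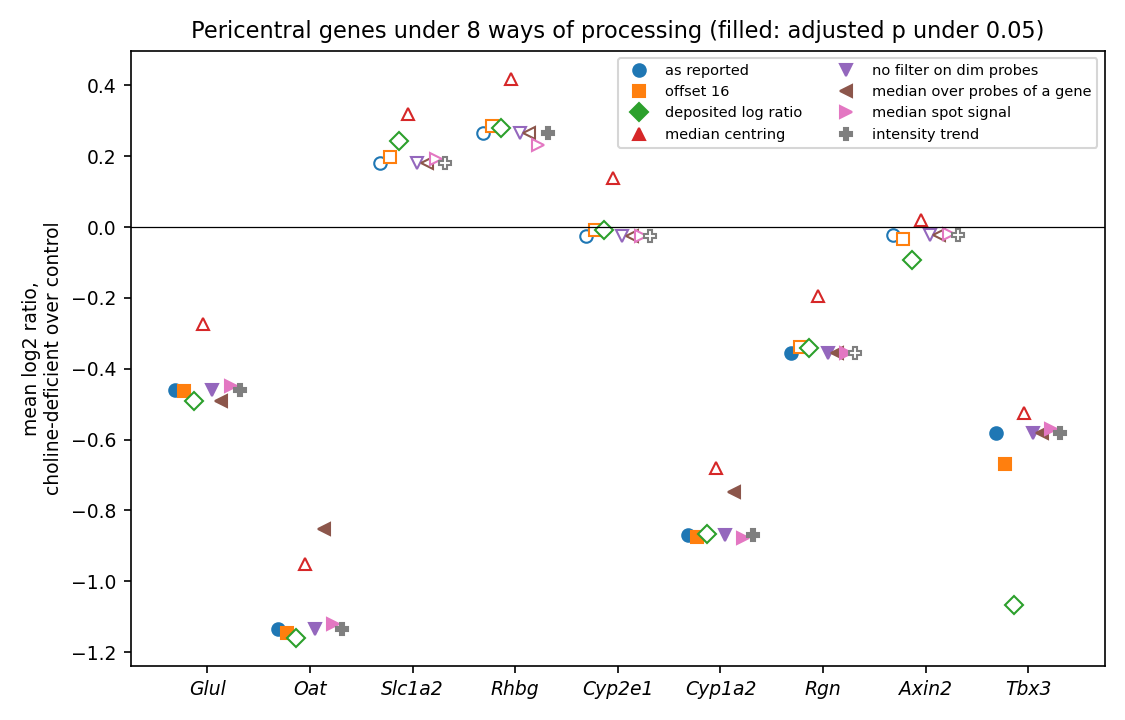
Mean log2 ratio (choline-deficient over control) of each tested pericentral gene under the main processing and each alternative; filled symbols mark an adjusted p under 0.05. Oat, Cyp1a2, Tbx3, Glul and Rgn stay below 0 in all 8 settings, and Oat, Cyp1a2, Tbx3 and Glul pass the test in 6 of them.

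The calls of the members that fell changed with the normalization, and the sign of their mean over the 2 arrays did not. Oat, Cyp1a2, Tbx3 and Glul were called lower in 6 of 8 settings, Rgn in 4, Rhbg was called higher in 1, and Slc1a2, Axin2 and Cyp2e1 were called in 0. The members that fell had mean ratios below 0 in all 8. The settings without a call were the authors' deposited log ratio and plain median centring, under which limma called 0 genes of 18198 after adjustment. At an unadjusted p under 0.05 they gave 2122 and 19 genes, including 5 and 0 of the members. With the deposited log ratio Oat was at -1.16 (limma, adjusted p = 0.197) and Glul at -0.49 (limma, adjusted p = 0.329). Median centring leaves intensity-dependent dye differences in the ratios, and under it the array values of a gene parted, for Glul to 0.70 on array 1 and -1.25 on array 2. Array 1 was then also above 0 for Oat (0.01), Cyp1a2 (0.13) and Rgn (1.12), and below 0 for Tbx3 (-0.09).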

How the data were processed

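The deposited scanner files hold mean and background intensity per spot for both dyes, with the authors' log10 ratio of Cy5 over Cy3 and its p-value, made with Agilent Feature Extraction 9.5.3.1 per the file headers (9.5 per the submitters' processing notes). The authors' deposited log10 ratios were turned into log2 ratios of choline-deficient over control, and the series value table equalled them in 45018 of 45018 rows. That p-value comes from the scanner software's error model within 1 array, per the file headers. Probe positions are those of rn4, per the file headers.

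Here intensities were corrected by normexp with an offset of 50 and normalized by loess within each array (limma 3.58.1, R 4.3.3). Control spots had weight 0, outlier spots (174 and 151) were dropped, and replicate spots were averaged per probe. Kept were 22383 probes that exceeded background clearly on both arrays in the same diet, for 1 diet or both. A gene was represented by its kept probe of highest mean intensity. Of all gene spots, 53.5% to 63.2% were well above background, and 0 were saturated. With 2 arrays on 1 slide, scanned together, precision is limited by their number. Log2 ratios in that direction were tested against 0 with lmFit and eBayes, two-sided. The test had 1 residual and 63.5 prior degrees of freedom, so the spread was largely pooled over genes. Per-diet levels followed A-quantile scaling between arrays. Of the tested genes, 9520 matched RefSeq (GRCr8) through their accession. The procedure was tested on simulated data.

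The members and lists were chosen with earlier results of these data known. Named were all members, up to 4 called genes of each context list with the largest mean ratio, and genes whose products act on or beside a member (Ahr, Arnt, Por, Ctnnb1, Tcf7l2, Lgr4, Rspo3, Znrf3, Rnf43, Gls2, Cps1). Alternatives changed the offset, the normalization, the filter, the choice of probe, the spot signal and the variance trend, or left out an array.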

Additional observations from a re-analysis of the deposited data

How the results depend on the processing

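With 2 arrays there is no check beyond their own spread, and the count of calls rests on a spread pooled over genes. With a background offset of 16, Rgn was at -0.34 (limma, adjusted p = 0.0743). With the authors' deposited log ratio, 0 genes were called higher and 0 lower, and so 0 members and 0 genes of the context lists in either direction (2122 genes at an unadjusted p under 0.05). Values there were -0.49 for Glul (adjusted p = 0.329), -1.16 for Oat (0.197), -0.87 for Cyp1a2 (0.252), -0.34 for Rgn (0.412) and -1.07 for Tbx3 (0.234). With median centring the counts were again 0 and 0 (19 genes at an unadjusted p under 0.05). The median of the members was -0.19, and Glul was at -0.27, Oat at -0.95, Cyp1a2 at -0.68, Rgn at -0.19 and Tbx3 at -0.52, with Cyp2e1 at 0.14 and Axin2 at 0.021, both above 0. Without a filter on dim probes Lgr5 entered at 0.01, and the median of the members was -0.19. With the intensity trend, 1 member was called higher, Rhbg at 0.27 (adjusted p = 0.0339), and Rgn was at -0.36 (adjusted p = 0.171). The cause of these differences was not tested. Leaving out an array gives a value with no test: the median of the members ranged from -0.37 to -0.34, and the members that fell stayed below 0. Genes called higher and lower over all genes numbered from 618 to 967 and from 570 to 866 in the settings that called any. For the counts called per list and direction, over the context and cell marker lists, 137 comparisons with an alternative stayed within 1.5 times the reported count, 43 fell below that and 2 rose above it. Many of the 137 are counts of 0 that stayed 0. Most of the 43 come from the 2 settings that called 0 genes, so this tally does not measure how stable the counts are.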
